A study of Mus musculus with 8 samples.

Results

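The AP-1 genes described here are 9 members of the FOS, JUN, ATF3, BATF and MAF families, Fos, Fosb, Fosl2, Jun, Junb, Jund, Atf3, Batf and Maff, taken by symbol from the 23361 genes of the deposited transcriptome table. All 9 were found, each with a locus entry of its own. They were followed in cultured leukaemia lines, made from bone marrow of 129S6 mice, that carry the MLL-AF9 fusion oncogene and CreERT2, a recombinase activated by 4-hydroxytamoxifen (4OHT). One line was Cdc73fl/fl, in which 4OHT excises Cdc73, a subunit gene of the PAF1 elongation complex, and the other, its control, was Cdc73 +/+. Both lines received 7.5 nM 4OHT, so the dose of the drug was shared. The level of active recombinase in each line is not known here. The 4 groups were Cdc73 fl/fl and Cdc73 +/+ cells at 24 h, and Cdc73 fl/fl and Cdc73 +/+ cells at 48 h, each with 2 biological duplicates of poly(A) RNA from cells grown in interleukin 3. The 2 genotypes are separate established lines and no library without 4OHT was analysed here, so a difference between the lines that preceded excision cannot be told apart from one that followed it.

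AP-1 is a set of dimers of basic leucine zipper proteins. FOS proteins bind DNA mainly as partners of JUN proteins, whereas JUN proteins can also pair with each other. The dimers recognise sites that fall within the pattern TGANTCA, where N is any base, or, with ATF partners, TGACGTCA sites. Several of the genes are immediate early genes, whose short-lived mRNAs appear within minutes of growth factor, cytokine or stress signals, and in myeloid cells AP-1 is known for its part in monocyte and macrophage differentiation.

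The promoters of 6 members are shown because they span the range of behaviour described below, from genes called higher in Cdc73 fl/fl cells to genes not called at either time. Each line gives the 150 bases just upstream of an annotated transcription start, 5′ to 3′ on the gene's strand, from RefSeq on GRCm38.p6, the assembly of mm10. Capitals mark TGACG or its reverse complement, TGACNTCA and TATAAA.
Fos, chr12:85473740-85473889, plus strand: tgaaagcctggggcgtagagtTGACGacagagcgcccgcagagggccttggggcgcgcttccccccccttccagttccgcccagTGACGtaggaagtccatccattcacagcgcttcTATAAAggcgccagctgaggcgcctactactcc
Junb, chr8:84978749-84978898, minus strand: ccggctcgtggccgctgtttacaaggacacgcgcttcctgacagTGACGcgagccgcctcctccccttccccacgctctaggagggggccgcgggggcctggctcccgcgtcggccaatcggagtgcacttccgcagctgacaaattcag
Jun, chr4:95052223-95052372, minus strand: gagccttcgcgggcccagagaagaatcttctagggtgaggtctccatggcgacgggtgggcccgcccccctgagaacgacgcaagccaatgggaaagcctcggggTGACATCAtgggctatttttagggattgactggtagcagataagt
Atf3, chr1:191183334-191183483, minus strand: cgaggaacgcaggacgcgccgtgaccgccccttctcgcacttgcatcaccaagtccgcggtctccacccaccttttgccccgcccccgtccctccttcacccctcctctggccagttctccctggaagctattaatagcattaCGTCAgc
Batf, chr12:85686570-85686719, plus strand: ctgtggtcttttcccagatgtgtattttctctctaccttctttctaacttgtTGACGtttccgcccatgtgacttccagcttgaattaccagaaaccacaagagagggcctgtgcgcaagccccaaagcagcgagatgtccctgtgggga
Maff, chr15:79347370-79347519, plus strand: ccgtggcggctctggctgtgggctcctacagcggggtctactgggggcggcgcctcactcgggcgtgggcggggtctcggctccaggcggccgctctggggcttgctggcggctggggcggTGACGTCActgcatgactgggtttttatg

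The letters TGACG, the core of a cyclic AMP response element, were found on either strand within 250 bases upstream of a start in 6 of 9 members, Fos, Fosb, Junb, Atf3, Batf and Maff, and in 17.8% of all 32851 promoters of the same length. In Fos they lay at -129 to -125 and at -66 to -62 relative to the start, with TATAAA at -33 to -28, a motif found in 12.4% of promoters. Jun and the most downstream Maff start held TGACATCA, in Jun at -45 to -38, a match to TGACNTCA, which was present in 7.49% of promoters. The full TGACGTCA, found in 1.55% of promoters and overlapping both shorter motifs, occurred upstream of 1 Maff start, at -29 to -22. TGANTCA (6.75% of promoters) and the CArG box of serum response factor (1.47%) were searched on both strands and had no match in these windows. Sites more than 250 bases upstream were not searched, so the missing matches do not show that a gene lacks them. The upstream windows held 46.4% (Batf) to 68.8% (Fosb) G and C, against a median of 52.4%, and their part in the matches was not tested. Maff had 3 annotated starts, and the one printed lies nearest to the start in the deposited table. For Jund the window lies upstream of the RefSeq start at chr8:70697739, whereas GENCODE M21 starts the gene at 70698949. Its missing matches therefore hold for the RefSeq start alone.

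Levels are the authors' FPKM, which count fragments relative to transcript length and library size, and each group has 1 value in which the duplicates were already combined, so levels below carry no SD and no order of levels can be set against the spread between libraries. A gene is called higher or lower where the genotype q of the authors' deposited table is under 0.05, and all calls below are of that kind. In bulk RNA, more cells with a transcript and more of it per cell cannot be told apart. Cdc73 itself stood at 5.96 FPKM in Cdc73 fl/fl cells and 26.2 FPKM in Cdc73 +/+ cells at 24 h, and at 5.45 and 26.9 FPKM at 48 h (q = 0.000449 and q = 0.000165 in the authors' deposited table, the smallest q it holds at each time). Both values are over the whole gene, so the extent of excision cannot be read from them. The smallest q was shared by 1328 genes at 24 h and by 3684 genes at 48 h, so it does not rank the genes that hold it. Myeloid identity genes were present, among them Ptprc at 46.4 and 44.6 FPKM in Cdc73 fl/fl and Cdc73 +/+ cells at 24 h and Hoxa9 at 44.3 and 34.8 FPKM. Of 9 such genes 3 were called higher and 3 lower (33.3% each) at 24 h, beside 13.4% and 14.2% of all tested genes. At 48 h 4 (44.4%) were higher and 3 (33.3%) lower, beside 25.7% and 31.0%. Hoxa9 was higher and Kit and Meis1 lower at both times, Kit at 5.42 and 17.1 FPKM at 48 h. Ptprc was higher at 48 h, and Cebpa was lower at 24 h, at 35.7 and 68.8 FPKM. Of 31 markers of B, T, erythroid, megakaryocyte, mast and stromal cells, 24 were below 1 FPKM in all 4 groups and 7 of these were at 0 in all 4. The 31 markers together summed to 26.2 FPKM in Cdc73 fl/fl and 9.36 FPKM in Cdc73 +/+ cells at 24 h, and 29.5 and 9.14 FPKM at 48 h. Mcpt8 and Cd79b had the largest Cdc73 fl/fl values at 24 h, at 8.77 and 8.21 FPKM against 3.16 and 0.890 FPKM in Cdc73 +/+ cells. Pf4 had the largest at 48 h, at 10.8 FPKM against 0.977 FPKM. Mcpt8 and Cd79b were called higher at both times and Pf4 at 48 h, while Lck was not called and Gp9 was lower at 48 h.

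Of the 3 Fos family members in the set, Fos was called higher in Cdc73 fl/fl cells at both times and Fosl2 at 48 h. Fosl1, a Fos family gene outside the set whose locus entry holds another gene too, had no call. It stood at 0.761 and 1.33 FPKM in Cdc73 fl/fl and Cdc73 +/+ cells at 24 h and at 0.664 and 0.723 FPKM at 48 h. Fos, the partner of JUN proteins in the classical AP-1 dimer, lies on the plus strand at chr12:85473901-85477270 (mm10, as all loci below). It stood at 9.51 FPKM in Cdc73 fl/fl cells and 1.82 FPKM in Cdc73 +/+ cells at 24 h, and at 15.1 and 1.41 FPKM at 48 h. Both Cdc73 fl/fl values were therefore above both Cdc73 +/+ values, by 5.22-fold at 24 h (q = 0.000449 in the authors' deposited table) and 10.7-fold at 48 h (q = 0.000165). Fosl2, which encodes the more slowly induced FRA-2 (chr5:32136472-32157839), stood at 5.60 FPKM in Cdc73 fl/fl cells and 6.96 FPKM in Cdc73 +/+ cells at 24 h without a call (q = 0.0912 in the authors' deposited table). At 48 h it was 1.88-fold higher, at 10.2 FPKM in Cdc73 fl/fl and 5.44 FPKM in Cdc73 +/+ cells (q = 0.000165 in the authors' deposited table). Fosb, a close relative of Fos (chr7:19302696-19310045), was the 1 member below 1 FPKM in every group, at 0.298 and 0.0299 FPKM in Cdc73 fl/fl and Cdc73 +/+ cells at 24 h and 0.300 and 0.0320 FPKM at 48 h. Within each line its values at the 2 times were nearly the same, yet the authors' deposited q was 0.00939 at 24 h and 1 at 48 h, where a q of 1 was taken as not tested.

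All members of the Jun family were called higher in Cdc73 fl/fl cells at both times. Junb (chr8:84976909-84978748), a JUN protein that restrains proliferation of myeloid progenitors in mice, had the highest level of the 9 genes in Cdc73 fl/fl cells. It stood at 54.8 FPKM in Cdc73 fl/fl and 21.6 FPKM in Cdc73 +/+ cells at 24 h, a 2.53-fold difference, and at 104 and 20.7 FPKM at 48 h, a 5.03-fold difference (q = 0.000449 and q = 0.000165 in the authors' deposited table). Jun (chr4:95049036-95052222), the family member activated through phosphorylation by JNK kinases, stood at 6.29 and 4.28 FPKM in Cdc73 fl/fl and Cdc73 +/+ cells at 24 h, and at 28.6 and 3.50 FPKM at 48 h. Its difference was thus 1.47-fold at 24 h (q = 0.00393 in the authors' deposited table) and 8.17-fold at 48 h (q = 0.000165). Jund (chr8:70697739-70700616), the most steadily expressed JUN gene in many cell types, stood at 22.5 and 13.6 FPKM in Cdc73 fl/fl and Cdc73 +/+ cells at 24 h and at 42.2 and 14.3 FPKM at 48 h. These were differences of 1.65-fold and 2.94-fold (q = 0.000449 and q = 0.000165 in the authors' deposited table). For each of Jun, Junb and Jund the lower Cdc73 fl/fl value was above the higher Cdc73 +/+ value.

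Atf3 was called lower at 24 h and higher at 48 h in Cdc73 fl/fl cells, and Batf and Maff were not called. Atf3 (chr1:191170297-191183333), a stress-induced factor that represses as a homodimer and can activate with JUN partners, was lower in Cdc73 fl/fl cells at 24 h, at 1.19 FPKM against 1.77 FPKM in Cdc73 +/+ cells (0.669-fold, q = 0.0409 in the authors' deposited table). At 48 h it was 12.3-fold higher, at 8.70 FPKM in Cdc73 fl/fl and 0.708 FPKM in Cdc73 +/+ cells (q = 0.000165), so part of that ratio came from a lower Cdc73 +/+ value than at 24 h. Batf (chr12:85686720-85709087), which lacks a transactivation domain and works with JUN and IRF proteins, stood at 30.8 and 28.8 FPKM in Cdc73 fl/fl and Cdc73 +/+ cells at 24 h and at 32.3 and 29.3 FPKM at 48 h. Its q in the authors' deposited table was 0.692 and 0.525. Maff (chr15:79347678-79359076), a small MAF protein that also lacks a transactivation domain, stood at 2.1 and 1.95 FPKM in Cdc73 fl/fl and Cdc73 +/+ cells at 24 h and at 1.40 and 1.65 FPKM at 48 h, with q of 0.766 and 0.434. The missing calls do not show that these 2 genes were equal in the lines.

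**Figure D1:**
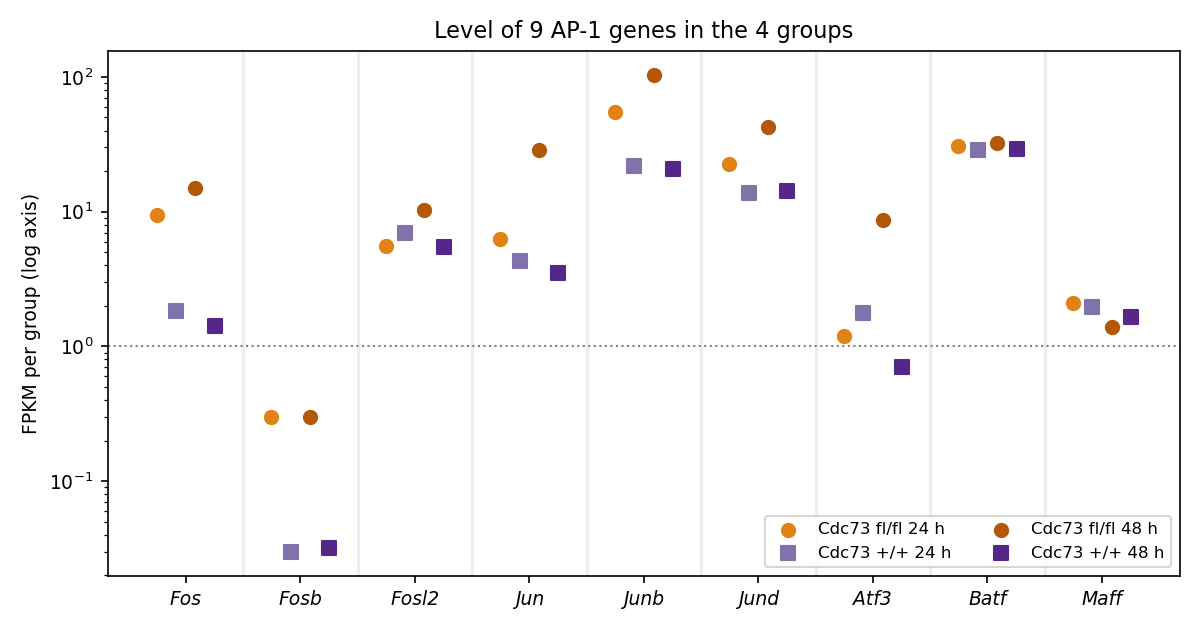
Level of each AP-1 gene in FPKM (log axis), 1 point per group, with Cdc73 fl/fl groups as circles and Cdc73 +/+ groups as squares, and a dotted line at 1 FPKM. Fos and the Jun family lie higher in Cdc73 fl/fl cells at both times, Atf3 is reversed at 24 h, and the Batf points run from 28.8 to 32.3 FPKM.

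A gene was taken as expressed where any group reached 1 FPKM. Of the members 8 did, all of them in a Cdc73 +/+ group too, and of these 4 were called higher and 1 lower at 24 h. Over all expressed and tested genes the shares were 13.4% higher and 14.2% lower. At 48 h 6 members were called higher and 0 lower, where 25.7% of all tested genes were higher and 31.0% lower. Counted at q under 0.01 the members called higher were again 4 and 6, beside 8.86% and 21.1% of genes, and at q under 0.1 again 4 and 6, beside 16.3% and 28.1%. Among genes of 5 FPKM or more they were also 4 and 6, beside 12.1% and 24.5%, and with no filter on level 5 and 6, beside 13.7% and 26.8%. The single lower call, Atf3 at 24 h, was lost at q under 0.01 and under a 2-fold minimum, which left 0 lower, beside 9.32% and 2.81% of genes. At q under 0.1 the lower calls were Atf3 and Fosl2, beside 17.4% of genes. With a 1 added to FPKM before the log2, which shrinks differences between low values, the median difference of the 8 members was 0.28 at 24 h and 1.88 at 48 h, beside -0.01 and -0.06 for all 11158 expressed genes. The median at 24 h moved with the settings, to 0.18 with 5 added in place of 1 and to 0.46 among members of at least 5 FPKM. Only 2 of the 4 calls at 24 h, Fos and Junb, reached a 2-fold ratio, which 3.75% of tested genes did in that direction with a call, and at 48 h 5 members did, beside 11.8% of genes. The members were chosen with results of these libraries known, so these counts are a description of them. Members called higher at both times were Fos, Jun, Junb and Jund, and 10.2% of genes tested at both times had that pattern. Atf3 was called lower at 24 h and higher at 48 h, as were 1.08% of those genes.

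**Figure D2:**
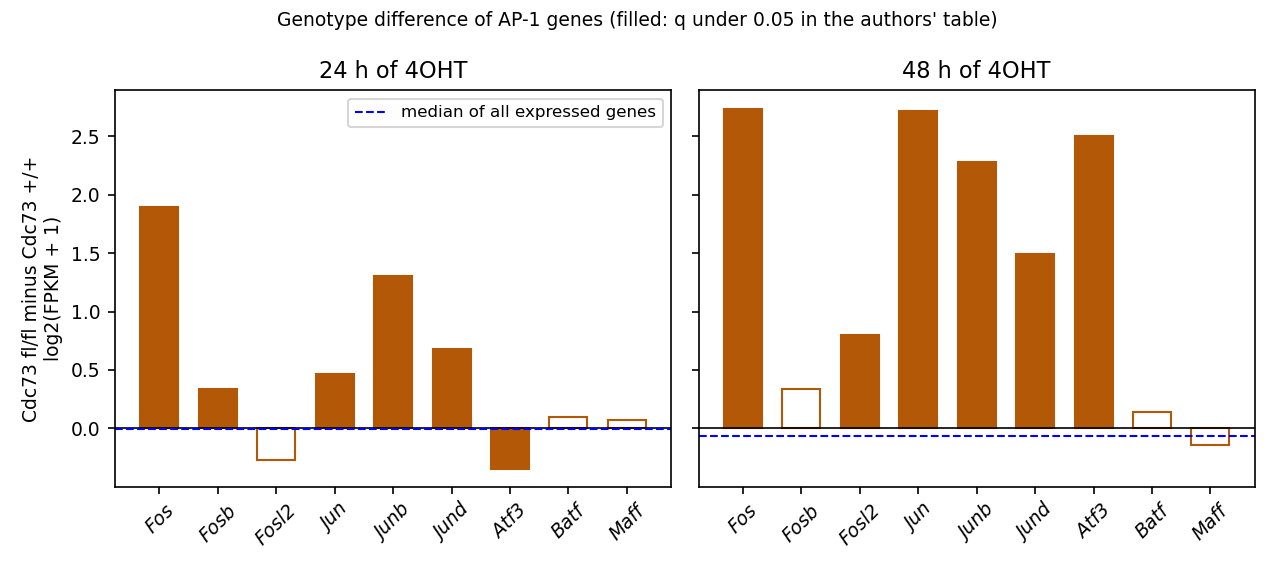
Difference between Cdc73 fl/fl and Cdc73 +/+ cells for each AP-1 gene on the log2(FPKM + 1) scale at 24 h and 48 h, with bars filled where the authors' q is under 0.05 and a dashed line at the median of all expressed genes. At 48 h the bars of Fos, Jun, Junb and Atf3 lie between 2.28 and 2.74, while those of Batf and Maff stand at 0.14 and -0.14.

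The makeup of the summed FPKM of these 9 genes differed between the lines, with a greater share from the Jun family and a smaller one from Batf in Cdc73 fl/fl cells. Summed over the 9 genes, FPKM was 133 in Cdc73 fl/fl and 80.9 in Cdc73 +/+ cells at 24 h, and 243 in Cdc73 fl/fl and 77.1 in Cdc73 +/+ cells at 48 h. The Jun family made up 62.8% of this sum in Cdc73 fl/fl and 48.9% in Cdc73 +/+ cells at 24 h, and 72.0% and 50.0% at 48 h. Batf held 23.2% of the sum in Cdc73 fl/fl and 35.6% in Cdc73 +/+ cells at 24 h, and 13.3% and 38% at 48 h, although its own level was within 28.8 to 32.3 FPKM in all 4 groups. The 3 Fos family members of the set held a smaller and steadier share, 11.6% in Cdc73 fl/fl and 10.9% in Cdc73 +/+ cells at 24 h. At 48 h their share was 10.5% and 8.93%. Among them the order of Fos and Fosl2 differed between the lines. In Cdc73 fl/fl cells Fos was above Fosl2 at both times, at 9.51 against 5.60 FPKM at 24 h and 15.1 against 10.2 FPKM at 48 h. In Cdc73 +/+ cells Fosl2 was above Fos, at 6.96 against 1.82 FPKM at 24 h and 5.44 against 1.41 FPKM at 48 h. The order of levels in Cdc73 +/+ cells was the same at both times, Batf, Junb, Jund, Fosl2, Jun, Maff, Fos, Atf3 and Fosb from high to low. In Cdc73 fl/fl cells at 48 h it was Junb, Jund, Batf, Jun, Fos, Fosl2, Atf3, Maff and Fosb. These shares and orders have no replicate error and hold for the 9 genes alone. The 11 other AP-1, ATF and MAF genes listed summed to 94.8 and 92.0 FPKM in Cdc73 fl/fl and Cdc73 +/+ cells at 24 h. At 48 h they summed to 108 and 91.5 FPKM.

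**Figure D3:**
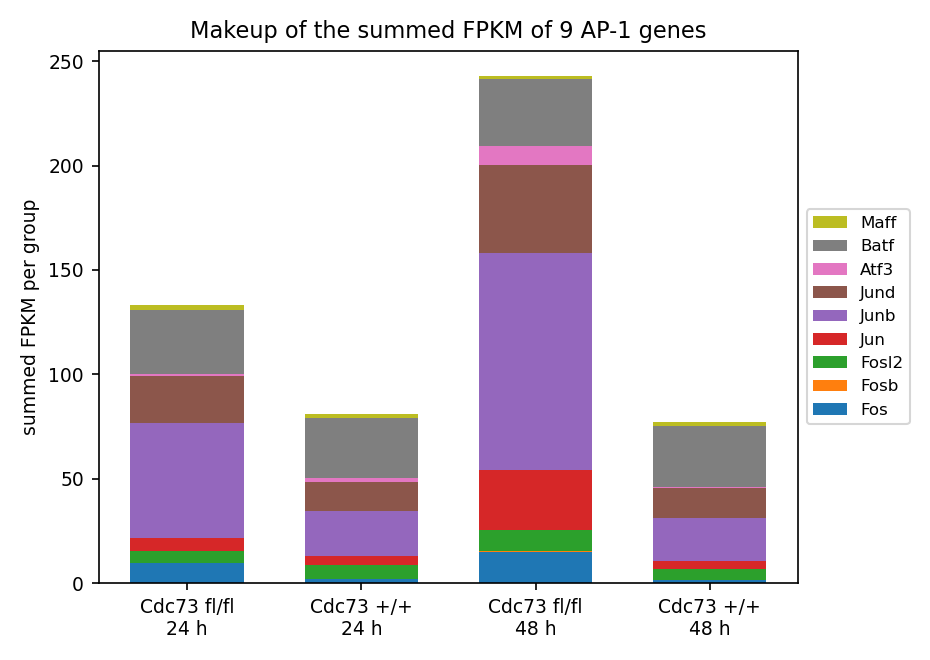
Summed FPKM of the 9 AP-1 genes in each group, stacked by gene. The bar of Cdc73 fl/fl cells at 48 h reaches 243 FPKM, of which Junb is 42.8%, and the Cdc73 +/+ bars reach 80.9 and 77.1 FPKM with Batf as the largest block.

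Between the times, Jun and Atf3 differed most in Cdc73 fl/fl cells, and these differences are given as values because the table holds no test of time and a common scaling of the times is not stated in it. Jun was 4.55 times as high at 48 h as at 24 h in Cdc73 fl/fl cells and 0.817 times as high in Cdc73 +/+ cells. Atf3 was 7.32 times as high in Cdc73 fl/fl cells and 0.399 times as high in Cdc73 +/+ cells. Junb, Jund and Fosl2 were 1.90, 1.88 and 1.83 times as high at 48 h in Cdc73 fl/fl cells, and 0.956, 1.05 and 0.782 times as high in Cdc73 +/+ cells. Fos, which already had its wide genotype ratio at 24 h, was 1.58 times as high at 48 h in Cdc73 fl/fl cells and 0.773 times as high in Cdc73 +/+ cells. On the log2(FPKM + 1) scale 2 of 9 members, Jun and Atf3, were at least 2-fold higher at 48 h in Cdc73 fl/fl cells, as were 4.80% of expressed genes, and 0 were 2-fold lower, as were 1.37%. In Cdc73 +/+ cells 0 of 9 members differed 2-fold in either direction, against 0.376% of expressed genes higher and 0.538% lower. On that scale the genotype difference at 48 h exceeded that at 24 h by 2.25 for Jun, 0.97 for Junb, 0.84 for Fos and 0.81 for Jund, all of them positive at both times. For Atf3 and Fosl2 the sign changed, from -0.34 at 24 h to 2.51 at 48 h and from -0.27 to 0.80. These changes with time were not tested.

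**Figure D4:**
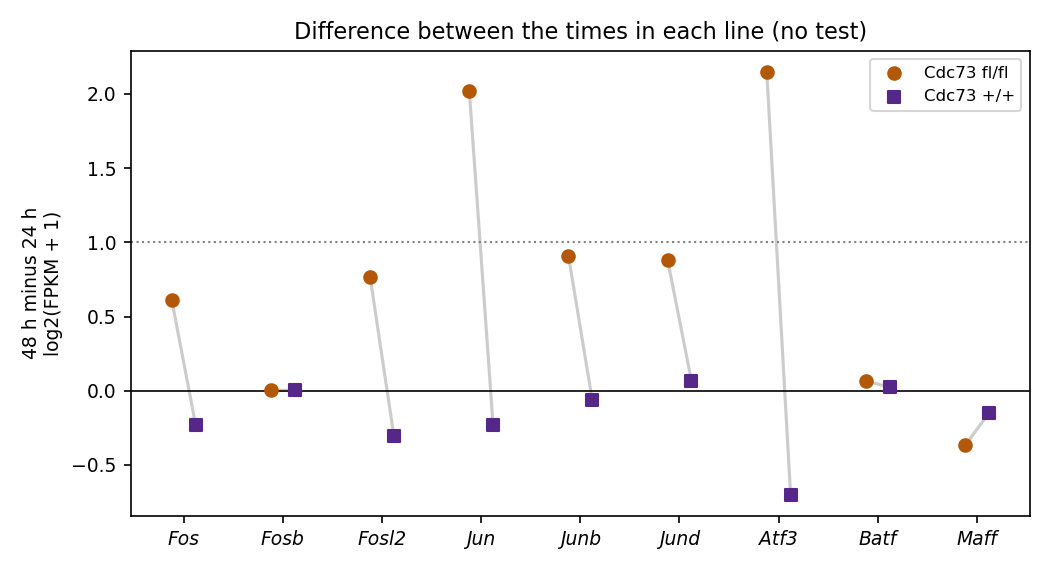
Difference between 48 h and 24 h for each AP-1 gene on the log2(FPKM + 1) scale, with circles for Cdc73 fl/fl and squares for Cdc73 +/+ cells and a dotted line at 2-fold. The circles of Jun and Atf3 stand at 2.02 and 2.15, and the squares lie between -0.70 and 0.07.

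The genes called higher at both times were also the most compact of the set. Fos, Jun, Junb and Jund span 3.37, 3.19, 1.84 and 2.88 kb in the deposited table, and the other members 7.35 kb (Fosb) to 22.4 kb (Batf). GENCODE M21 places the ends of some members elsewhere, with Junb at chr8:84974484-84978718, Jund at chr8:70698949-70700616 and Atf3 at chr1:191170296-191218039. Jun, Junb and Jund each have 1 exon in GENCODE M21, and the other members 3 or 4. Among expressed coding genes with their own locus entry, 19.3% of those under 5 kb and 13.5% of the longer ones were called higher at 24 h, and 37.5% and 26.4% at 48 h. Genes of 1 exon were called higher in 20.6% of cases at 24 h and 42.6% at 48 h, against 13.2% and 25.5% of genes with more exons. The limit of 5 kb was chosen after the values were seen, and the part of gene length in the members' differences was not tested.

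Genes next to the members were called higher no more often than genes at large. Fos, Jdp2 and Batf are the 3 genes of the table in a 235 kb stretch of chromosome 12, with Jdp2, a dimer partner that represses AP-1 sites, 122 kb beyond Fos and 46.8 kb before Batf. Jdp2 stood at 21.9 and 21.8 FPKM in Cdc73 fl/fl and Cdc73 +/+ cells at 24 h and at 20.3 and 23.1 FPKM at 48 h, with no call (q = 0.977 and q = 0.374 in the authors' deposited table), and Batf was not called either. Of 42 expressed and tested genes within 100 kb of any member, 3 (7.14%) were called higher at 24 h and 10 (23.8%) at 48 h, beside 13.4% and 25.7% of all tested genes.

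Short-lived mRNAs often carry AU-rich elements in their 3′ UTR, where ZFP36 and related proteins bind. The 9-base element TTATTTATT occurred in the longest coding transcript of 3 members, Fos, Fosl2 and Maff, and in 7.99% of 9934 expressed coding genes. Maff held 2 matches, of which the one nearer the stop codon is shown. The sites have the element in capitals, from the GENCODE M21 transcripts, because the element is shared by a gene called at both times, a gene called at 48 h and a gene not called.
Fos: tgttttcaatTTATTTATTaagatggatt
Fosl2: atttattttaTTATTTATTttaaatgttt
Maff: ttccacactcTTATTTATTgcacgaatct

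The shorter ATTTA occurred 4.89 times per kb of 3′ UTR in Fos, 4.10 in Junb, 3.27 in Maff, 3.24 in Jun, 2.52 in Atf3, 1.87 in Jund, 1.72 in Fosl2, 0.466 in Fosb and 0 in Batf, with a median of 1.30 over expressed coding genes. Of the genes that carry TTATTTATT, 16.0% were called higher at 24 h and 26.2% at 48 h, against 13.1% and 25.8% of genes that do not.

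Other genes of the AP-1 network went both ways, and each list below was chosen with earlier results of these data known. Over all tested genes 13.4% were higher and 14.2% lower at 24 h, and 25.7% and 31.0% at 48 h, and each list's shares are read against these. Of 7 other expressed AP-1 and MAF genes, 0 were called higher and 1 lower at 24 h, and 3 higher and 1 lower at 48 h, with a median difference of -0.07 and -0.05 on the log2(FPKM + 1) scale. Without Maf and Fosl1, which reached 1 FPKM in 1 group alone, 0 of 5 were called at 24 h, and 2 were higher and 1 lower at 48 h. The small MAF genes Mafg and Mafk were 1.57-fold and 1.59-fold higher at 48 h, at 46.4 and 29.6 FPKM and at 16.7 and 10.5 FPKM in Cdc73 fl/fl and Cdc73 +/+ cells. Maf, a large MAF factor of macrophages, stood at 0.203 and 0.777 FPKM in Cdc73 fl/fl and Cdc73 +/+ cells at 24 h and at 1.09 and 0.246 FPKM at 48 h, called lower and then higher. It reached 1 FPKM in the group where it was high and in no other. Atf7, an ATF partner of JUN, was lower at 48 h, at 2.52 and 4.58 FPKM. Of 4 expressed partners of small MAF proteins, 2 were higher at 24 h and 3 at 48 h, with 0 lower. Bach1, a haem-sensing repressor, was 1.28-fold and 1.87-fold higher at 24 and 48 h, and Nfe2, an activator of haematopoietic cells, 1.33-fold and 1.72-fold. Nfe2l1 was 1.42-fold higher at 48 h, and Nfe2l2, which encodes the oxidative stress factor NRF2, stood at 41.2 and 43.1 FPKM in Cdc73 fl/fl and Cdc73 +/+ cells at 48 h with no call.

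Upstream of AP-1, kinase genes and promoter-binding factors were called in both directions, as genes were across the table. Of 19 MAP kinase pathway genes, 3 were higher and 1 lower at 24 h, and 6 higher and 4 lower at 48 h (median difference 0.08 and 0.10). The shares higher, 15.8% at 24 h and 31.6% at 48 h, were near those of all tested genes, and 5.26% and 21.1% were lower. Map3k8, a kinase that activates the ERK pathway in myeloid cells, was 7.09-fold higher at 48 h, at 5.21 FPKM in Cdc73 fl/fl and 0.735 FPKM in Cdc73 +/+ cells. Mapk7, which encodes ERK5, was 2.55-fold and Mapk3, which encodes ERK1, 2.17-fold higher at 48 h. Map2k6, an activator of p38, was lower at both times, at 2.65 and 4.86 FPKM in Cdc73 fl/fl and Cdc73 +/+ cells at 24 h and 1.08 and 5.84 FPKM at 48 h. Rps6ka1, an ERK-activated kinase gene, stood at 182 and 143 FPKM at 48 h with no call. Of 11 factors that bind the promoters of immediate early genes, 1 was higher and 3 lower at 24 h, and 2 higher and 4 lower at 48 h (median difference -0.04 and -0.08). In so short a list these are 9.09% higher and 27.3% lower at 24 h, and 18.2% and 36.4% at 48 h, within 2 genes of the shares across the table. Creb1, which binds cyclic AMP response elements, was lower, at 0.770-fold and 0.453-fold at 24 and 48 h, and so was the ternary complex factor gene Elk3, at 0.569-fold and 0.482-fold. Elk4, of the same family, was 1.64-fold and 1.89-fold higher, and Mef2a was 1.67-fold higher at 48 h. Mkl1, a coactivator of serum response factor whose locus entry holds another gene too, stood at 20.5 and 16.6 FPKM at 48 h with no call. Of 8 regulators of JUN and FOS protein, 0 were called at 24 h. At 48 h 2 (25%) were lower, beside 31.0% of all tested genes. These were Itch, a ubiquitin ligase gene at 11.4 and 17.7 FPKM in Cdc73 fl/fl and Cdc73 +/+ cells, and Det1. Det1, part of a ligase for JUN, stood at 3.55 and 6.48 FPKM. Cops5, whose product binds JUN, stood at 87.0 and 107 FPKM with no call.

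Genes acting on mRNA stability were called in both directions. The named genes called higher encode ZFP36 and members of the BTG and TOB family, which recruits deadenylases. Of 12 such genes, 5 were higher and 2 lower at 24 h, and 5 higher and 3 lower at 48 h (median difference 0.11 at both times). The share higher was 41.7% at both times, beside 13.4% of all tested genes at 24 h and 25.7% at 48 h. The shares lower, 16.7% and 25%, were near or below the 14.2% and 31.0% of all tested genes. Zfp36, which destabilises AU-rich mRNAs, was higher at both times, at 37.4 and 15.5 FPKM in Cdc73 fl/fl and Cdc73 +/+ cells at 24 h and at 85.9 and 14.0 FPKM at 48 h. Tob1 was 3.12-fold and 7.78-fold, Btg2 2.03-fold and 4.88-fold and Btg1 1.79-fold and 4.47-fold higher at 24 and 48 h. Zfp36l2 stood at 63.7 and 74.6 FPKM at 48 h with no call. Hnrnpd and Khsrp were called lower at both times and Elavl1 at 48 h. Hnrnpd stood at 34.4 and 61.2 FPKM in Cdc73 fl/fl and Cdc73 +/+ cells at 24 h and at 29.7 and 55.7 FPKM at 48 h. Khsrp stood at 31.5 and 50.0 FPKM at 24 h and at 37.2 and 51.4 FPKM at 48 h, and Elavl1 at 15.9 and 23.2 FPKM at 48 h.

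Known targets of AP-1 were mixed at 24 h and mostly higher at 48 h. Of 13 expressed targets, 3 (23.1%) were called higher and 4 (30.8%) lower at 24 h, beside 13.4% and 14.2% of all tested genes. At 48 h 10 (76.9%) were higher and 0 lower, beside 25.7% and 31.0%. The median difference was 0.06 at 24 h and 1.24 at 48 h. Il1b, Ccnd1 and Mmp13 reached 1 FPKM in Cdc73 fl/fl cells at 48 h alone and Fosl1 in Cdc73 +/+ cells at 24 h alone, so these entered through the group where they were high. Without these 4 genes, 3 of 9 targets were higher and 3 lower at 24 h, and 8 higher and 0 lower at 48 h, with a median difference of 0.17 and 1.52. Tnf, an inflammatory cytokine gene, was higher at both times, at 12.8 and 2.98 FPKM in Cdc73 fl/fl and Cdc73 +/+ cells at 24 h and at 21.0 and 2.72 FPKM at 48 h. Plaur, the urokinase receptor gene, was 1.36-fold and 5.83-fold higher at the 2 times. Hmox1, which encodes haem oxygenase, stood at 30.4 and 24.0 FPKM at 24 h with no call and was 7.52-fold higher at 48 h. Mmp9, a gelatinase gene, was lower at 24 h, at 4.12 FPKM in Cdc73 fl/fl and 9.90 FPKM in Cdc73 +/+ cells, and higher at 48 h, at 46.7 and 7.01 FPKM. Mmp13, a collagenase gene, stood at 1.41 and 0.0197 FPKM in Cdc73 fl/fl and Cdc73 +/+ cells at 48 h with no call (q = 0.168 in the authors' deposited table). Ccl2 and Spp1 had the same order of calls as Mmp9, making 3 of 13 targets, and were named after their values were seen.

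**Figure D5:**
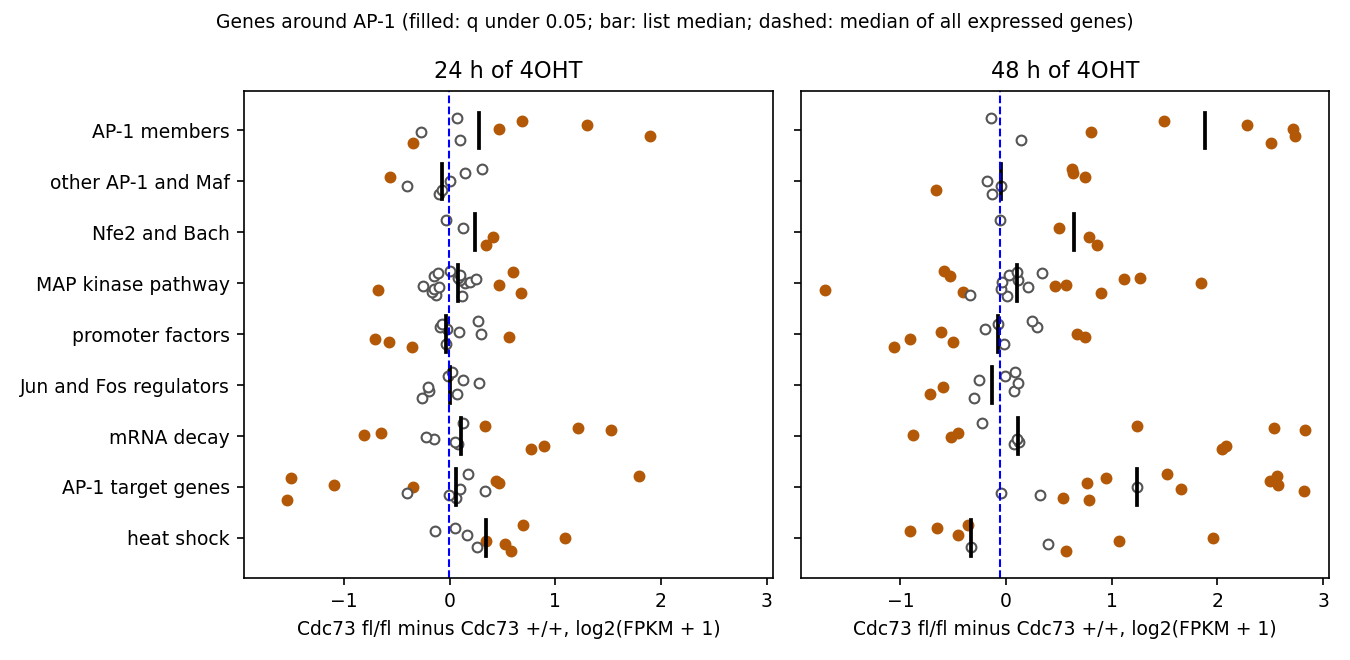
Difference between Cdc73 fl/fl and Cdc73 +/+ cells on the log2(FPKM + 1) scale for each expressed gene of the AP-1 set and 8 lists around it, at 24 h and 48 h, with filled points for genes called at q under 0.05, a bar at each list's median and a dashed line at the median of all expressed genes. At 48 h the bars of the AP-1 members and their targets stand at 1.88 and 1.24, and those of the promoter factors and of the Jun and Fos regulators at -0.08 and -0.13.

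Markers of mature myeloid cells were called in both directions at 24 h and mostly higher at 48 h, and heat shock genes went both ways at 48 h. Over all tested genes 13.4% were higher and 14.2% lower at 24 h, and 25.7% and 31.0% at 48 h. Of 10 expressed monocyte and macrophage markers, 0 were higher and 4 (40%) lower at 24 h, and 9 (90%) higher and 1 (10%) lower at 48 h. Their summed level was 1109 FPKM in Cdc73 fl/fl and 1294 FPKM in Cdc73 +/+ cells at 24 h, and 3723 and 762 FPKM at 48 h. Most of this sum was Lyz2, at 916 and 1003 FPKM at 24 h and at 3333 and 587 FPKM at 48 h. Of 11 expressed granulocyte markers, which include Mmp9, 5 (45.5%) were higher and 2 (18.2%) lower at 24 h, and 10 (90.9%) higher and 0 lower at 48 h. The granulocyte markers summed to 7974 and 8929 FPKM in Cdc73 fl/fl and Cdc73 +/+ cells at 24 h and 24836 and 6732 FPKM at 48 h. Most of this sum was S100a8 and S100a9. In the same order of groups, S100a8 stood at 5757 and 5445 FPKM at 24 h and at 16678.5 and 4134 FPKM at 48 h. S100a9 stood at 1166 and 2574 FPKM at 24 h and at 6618 and 1993 FPKM at 48 h. Of 9 expressed heat shock genes, 5 (55.6%) were higher and 0 lower at 24 h, and 3 (33.3%) higher and 4 (44.4%) lower at 48 h. Without Hspa1a, which reached 1 FPKM in Cdc73 fl/fl cells at 48 h alone, 4 of 8 were higher at 24 h, and 2 higher and 4 lower at 48 h. The stress-inducible Hspa1b stood at 1.62 and 0.225 FPKM in Cdc73 fl/fl and Cdc73 +/+ cells at 24 h and at 3.92 and 0.265 FPKM at 48 h. Its near-identical copy Hspa1a was also called higher at both times, and reads may be split unevenly between the copies. The chaperonin genes Hspd1 and Hspe1 were lower, at 0.532-fold and 0.636-fold at 48 h, and Hsp90aa1 stood at 1072 and 814 FPKM with no call. The part of these markers in the AP-1 differences was not tested.

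Across the 4 groups, the genes with profiles nearest to those of Fos, Jun and Junb were found by Euclidean distance between centred log2(FPKM + 1) values, a likeness over 4 values that share their libraries. For Fos they were Hddc3 (distance 0.085), Tnf (0.17) and Cd1d2 (0.20). For Jun they were Hsd11b1 (0.10), Mir22hg (0.17) and Fcgr4 (0.17), and for Junb Pgam2 (0.12), Hexim1 (0.14) and Gm5483 (0.14). Hsd11b1 stood at 44.0 and 28.6 FPKM in Cdc73 fl/fl and Cdc73 +/+ cells at 24 h and at 177 and 26.0 FPKM at 48 h, and Hexim1, an inhibitor of the elongation kinase P-TEFb, at 72.2 and 27.0 FPKM and at 147 and 26.9 FPKM. Mir22hg shares its locus entry with another gene. Cd1d2 stood at 3.3 and 0.0511 FPKM in Cdc73 fl/fl and Cdc73 +/+ cells at 24 h and at 6.01 and 0.0663 FPKM at 48 h. It thus counted as expressed through the Cdc73 fl/fl groups alone, and had no call at 24 h (q = 0.246 in the authors' deposited table).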

How the data were processed

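Poly(A) RNA of 8 libraries in 4 groups was sequenced, per the labels' protocols. The submitters' processing notes name Bowtie2, Cuffdiff, Cufflinks 2.1 and the mm10 build without their roles. Per the file headers, the authors deposited for each gene an FPKM in each group, with a q-value and a fold for genotype at each time. The last fold column repeats the 24 h name; it equals the 48 h FPKM ratio within 0.1% for 14820 of 14823 genes above 0. The sources used here give no strandedness, counting annotation or depth, so no interval or detection limit was computed and antisense reads cannot be told apart. FPKM is relative to all other RNA.

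Genes of 1 FPKM or more in at least 1 group were taken as expressed (11158), and 27 names turned into dates were left out. A q under 0.05 was a call and a q of 1 was taken as not tested. The q rests on 2 libraries per group and is a significance of the genotype difference, not a measure of spread. How the spread between duplicates entered the q is unknown here. With 1 line per genotype, the q cannot cover variation between separately derived lines. No test was added, since 1 value per group allows none. Ratios are of deposited FPKM, and differences use log2(FPKM + 1). Table loci were made 1-based. Spans are from the table, exons and UTRs from the longest coding transcript in GENCODE M21, and promoters from RefSeq. The 9 members, the gene lists and the naming rule were chosen with earlier results of these data known. From each list up to 4 called genes with the greatest log2 difference at 48 h and the greatest not called one were named. Named besides these were Ccl2, Spp1, the markers and, after their values were seen, Fosl1, Hnrnpd, Khsrp and Elavl1. Alternatives were other q limits, a 2-fold minimum, other pseudocounts, 3 rescalings and other level filters. Python 3.11.15, pandas 2.3.3, numpy 2.4.6 and matplotlib 3.10.9 were used.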

Additional observations from a re-analysis of the deposited data

Results flagged for a closer look

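Genes are listed here whose genotype difference had opposite calls at the 2 times, among the AP-1 genes, the lists around them and the myeloid markers. The change between the times was not tested. Values are Cdc73 fl/fl minus Cdc73 +/+ on the log2(FPKM + 1) scale. Atf3 stood at -0.34 at 24 h and 2.51 at 48 h, and Maf at -0.56 and 0.75. Among the targets, Mmp9 stood at -1.09 and 2.57, Spp1 at -1.5 and 0.94, and Ccl2 at -1.53 and 0.79. The same order of calls was found for the monocyte and macrophage markers Cd68, at -0.50 and 1.36, Fcgr1, at -0.76 and 0.40, and Msr1, at -0.40 and 1.62, and for the granulocyte marker S100a9, at -1.14 and 1.73. Called higher and then lower were Hsph1, a heat shock gene, at 0.69 and -0.36, and Mpo, which encodes myeloperoxidase, at 0.79 and -0.44.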

How the results depend on the processing

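With q under 0.01 or 0.1, 4 AP-1 genes were called higher at 24 h and 6 at 48 h, the counts at q under 0.05. With a 2-fold minimum it was 2 at 24 h and 5 at 48 h, where 3.75% and 11.8% of tested genes passed. Chosen after seeing the data, the same limits were applied to lower calls at 24 h, which numbered 1 as reported (Atf3), 0 with q under 0.01, 2 with q under 0.1 and 0 with a 2-fold minimum, and list counts were repeated without genes of 1 FPKM in 1 group alone. Without a filter on low values Fosb was added at 24 h, making 5. A pseudocount of 5 gave a median difference at 24 h of 0.18, beside 0.28 as reported, and it was 0.46 among members of at least 5 FPKM. The median at 48 h ranged from 1.28 to 2.28. The sign of a member's difference cannot change with a pseudocount, and under the rescalings 0 of 52 differences changed sign. Rescaling to equal sums shifted the median of all genes at 48 h by -0.09. Leaving out a replicate could not be run. No paired analysis was possible because the table holds 1 value per group. Depth is not given, so low genes such as Fosb have no detection limit.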
